A study of Homo sapiens with 4 samples.

Results

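The FOXO group comprised 10 genes chosen by name: the transcription factors FOXO1 and FOXO3, and 8 genes reported as targets of FOXO or of feedback in the PI3K pathway, namely KLF2, TXNIP, PIK3IP1, IRS2, INSR, CCNG2, CITED2 and TRIB1. They were chosen with earlier results of these data known. On the array used, 19 of the 19064 probe sets that name a single gene belonged to them, and all 10 genes were among the 11963 genes so represented. A further 3 probe sets name a member together with another gene and were not used. RNA came from SUP-B15 and BV-173, established human lines of leukemia with the Philadelphia chromosome, whose product is the BCR-ABL1 fusion kinase. The 4 groups were SUP-B15 treated for 16 h with 10 μmol/l STI571, SUP-B15 untreated, BV-173 treated in the same way and BV-173 untreated. STI571 (imatinib) blocks the BCR-ABL1 kinase. Each group was 1 array, and each line is a single established culture, so every response below is 1 treated array set against 1 untreated array, and no spread between cultures of a line was measured.

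PI3K is switched on by many growth factor receptors and by oncogenic tyrosine kinases such as BCR-ABL1, and it activates the kinase AKT. AKT phosphorylates FOXO proteins, which are then held in the cytoplasm by 14-3-3 proteins. When PI3K or AKT is blocked, FOXO proteins enter the nucleus and induce genes of cell cycle exit, of B cell development and of insulin signalling itself, the last of which feeds back on the pathway. FOXO activity is set mainly by this change of location, which RNA levels of FOXO1 and FOXO3 do not report.

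The promoters of 5 members are shown because the results turn on these genes: TXNIP, KLF2 and, at a smaller size, IRS2 had changes of opposite sign in the lines, and CCNG2 and INSR were called higher after STI571. Each sequence is the 250 bases before a RefSeq transcription start of GRCh38.p14, read 5′ to 3′ on the gene's strand, with the motif matches in capitals. Both strands were searched for the forkhead motif GTAAACA, the insulin response sequence CAAAACAA, the E-box CACGTG, and the carbohydrate response element, written as CACGNG followed after 5 bases by CNCGNG.

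TXNIP chr1:145996580-145996829 (minus strand): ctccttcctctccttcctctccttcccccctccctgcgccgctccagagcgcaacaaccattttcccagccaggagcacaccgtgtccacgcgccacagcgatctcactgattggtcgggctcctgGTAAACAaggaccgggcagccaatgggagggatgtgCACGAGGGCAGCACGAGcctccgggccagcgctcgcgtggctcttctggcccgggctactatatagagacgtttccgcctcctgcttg

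IRS2 chr13:109786584-109786833 (minus strand): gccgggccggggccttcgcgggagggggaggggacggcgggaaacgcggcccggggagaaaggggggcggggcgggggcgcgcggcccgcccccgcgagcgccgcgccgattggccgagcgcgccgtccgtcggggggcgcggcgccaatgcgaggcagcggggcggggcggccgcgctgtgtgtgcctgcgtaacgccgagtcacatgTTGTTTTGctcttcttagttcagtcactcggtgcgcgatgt

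CCNG2 chr4:77156957-77157206 (plus strand): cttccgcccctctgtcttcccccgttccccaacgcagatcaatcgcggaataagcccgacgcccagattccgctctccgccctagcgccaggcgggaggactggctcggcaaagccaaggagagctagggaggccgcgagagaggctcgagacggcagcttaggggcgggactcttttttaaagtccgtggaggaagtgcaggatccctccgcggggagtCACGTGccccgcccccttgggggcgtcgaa

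INSR chr19:7294415-7294664 (minus strand): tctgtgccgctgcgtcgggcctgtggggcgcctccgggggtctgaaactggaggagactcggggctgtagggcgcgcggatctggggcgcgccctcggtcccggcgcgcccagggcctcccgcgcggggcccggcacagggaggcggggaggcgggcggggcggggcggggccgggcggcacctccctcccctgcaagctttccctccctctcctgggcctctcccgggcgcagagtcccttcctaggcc

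KLF2 chr19:16324576-16324825 (plus strand): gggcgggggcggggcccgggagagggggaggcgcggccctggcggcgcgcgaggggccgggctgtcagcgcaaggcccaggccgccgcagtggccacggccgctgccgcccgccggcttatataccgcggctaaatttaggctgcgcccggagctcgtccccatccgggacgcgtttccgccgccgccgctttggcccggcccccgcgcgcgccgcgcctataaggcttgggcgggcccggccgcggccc

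TXNIP held the forkhead motif at positions -124 to -118 from the start and the carbohydrate response element at -88 to -72, which do not overlap. Sequences were at hand for 16 promoters of 9 of the members, and TRIB1 had none. Each of these motifs was found in 1 of the 16, the TXNIP promoter shown. The other TXNIP promoter searched held neither. The same window held the forkhead motif in 2.98% of 35116 RefSeq promoters and the carbohydrate response element in 0.424%. IRS2 held the insulin response sequence, on the opposite strand, at -41 to -34, as did 1.46% of promoters. CCNG2 had an E-box at -30 to -25 and CITED2 one at -153 to -148, against 6.34% of promoters. For INSR and KLF2 none of these letters were found in the 250 bases shown. A match is a description of the letters and not a binding site.

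All 10 genes and all 19 probe sets passed the filter, which asked for a signal at or above the array's median in at least 1 array. Of the probe sets, 17 were at or above the median in all 4 arrays. The exceptions were that of KLF2, which reached it in treated BV-173 and untreated SUP-B15, and the dimmer probe set of INSR, which reached it in treated SUP-B15 alone. Changes are differences of log2(signal + 24.5) for the brightest probe set of a gene, and understate the change of dim genes. The labelled cell type was checked by its markers, and 7 of 8 measured markers of B cell precursors were at or above the median in all 4 arrays. The exception was MME, which encodes the surface antigen CD10, with signals of 4177.9 and 2101.6 in SUP-B15, treated and untreated, and of 81.4 and 31.3 in BV-173. These markers moved with STI571: limma called 5 of the 8 higher and 0 lower, with a median log2 change of 0.34 in SUP-B15 and 1.29 in BV-173, and their part in the members' results was not tested. Of 23 markers of 4 other cell types, 0 were at or above the median in all arrays and 16 were below it in every array. LCK, a T cell marker, and MPO, a myeloid marker, were above it in both SUP-B15 arrays and below it in both BV-173 arrays. Their signals in treated and untreated SUP-B15 were 283.8 and 361.0 for LCK and 162.0 and 196.2 for MPO. The 18S ribosomal RNA controls averaged 2816.8 in treated BV-173 and 1512.7 to 1596.5 in the other arrays, and their part in the results was not tested.

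**Figure D1:**
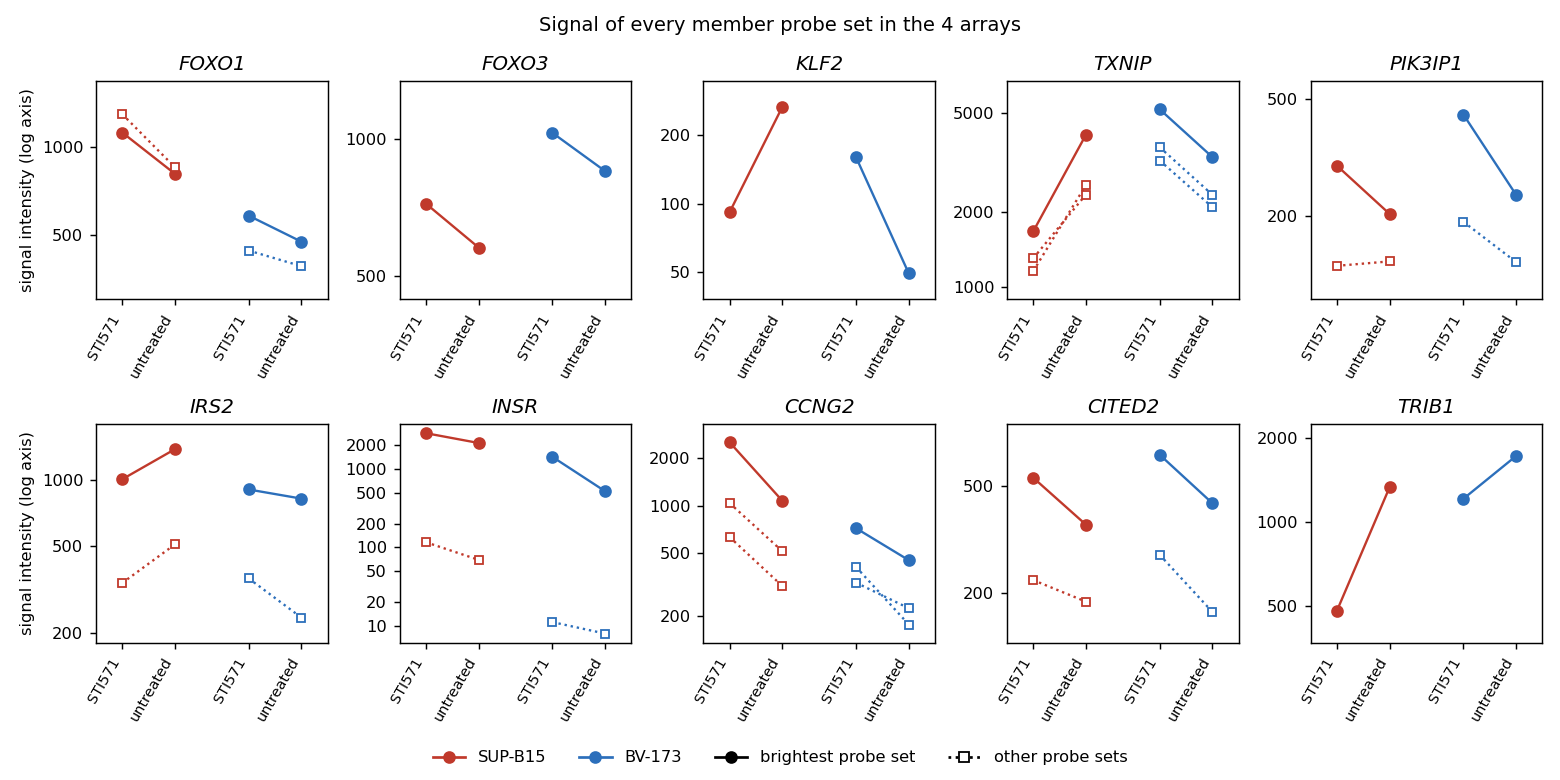
Signal intensity (log axis, a separate range per panel) of the 19 probe sets of the 10 member genes in the 4 arrays, SUP-B15 in red and BV-173 in blue, with filled circles for the brightest probe set of a gene and open squares for the others. CCNG2 was higher after STI571 in both lines with all 3 probe sets, TRIB1 was lower in both, and KLF2 and TXNIP were lower after STI571 in SUP-B15 and higher in BV-173.

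The first comparison asked how the FOXO genes and their targets responded to STI571. Averaged over SUP-B15 and BV-173, CCNG2 and INSR rose and TRIB1 fell, while the other 7 members were not called. These calls come from a limma fit with cell line and treatment as terms and Benjamini-Hochberg adjustment over 7916 genes, at an adjusted p under 0.05. Over all genes the same fit called 1.4% higher and 1.62% lower. A positive change in both lines was seen for 6 of the 10 members, against 28.8% of all genes, and a negative change in both for 1 member, against 26.5%. The other 3 members were lower after STI571 in SUP-B15 and higher in BV-173, a pattern shown by 24.8% of all genes. KLF2 among them passed the filter only through the arrays in which it is high, so the share is not read for it. A change of 2-fold or more, alike in direction in SUP-B15 and BV-173, was seen in 0 members and in 1.63% of all genes. The median change of the members was 0.36 in SUP-B15 and 0.61 in BV-173 on the log2 scale, and that of all genes was -0.01 and 0.05. Because the members were chosen with earlier results of these data known, these counts and medians are a description and not a test.

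Neither FOXO factor was called for STI571. FOXO1, the factor required for early B cell development in mice, had signals of 1123.2 in treated and 809.8 in untreated SUP-B15, and of 581.5 in treated and 473.2 in untreated BV-173. Both SUP-B15 arrays were above both BV-173 arrays, and in each line the treated array was the higher. The mean log2 change was 0.37 (SE 0.24), which limma did not call (adjusted p = 0.624). The other FOXO1 probe set gave changes of 0.59 in SUP-B15 and 0.17 in BV-173. FOXO3, a factor linked to quiescence and apoptosis of blood cells, had 720.7 in treated and 577.1 in untreated SUP-B15, and 1031.6 in treated and 849.8 in untreated BV-173. The treated array was again the higher in each line, by 0.31 and 0.27 on the log2 scale, and limma did not call the mean change of 0.29 (SE 0.24, adjusted p = 0.739). For both genes the change within BV-173, and for FOXO3 that within SUP-B15 too, was smaller than the fit's standard error of a difference between a pair of arrays, 0.34 for FOXO1 and 0.33 for FOXO3.

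CCNG2 encodes cyclin G2, an atypical cyclin associated with cell cycle arrest and induced by FOXO factors. Its signal was 2521.7 in treated and 1075.9 in untreated SUP-B15, and 720.6 in treated and 452.7 in untreated BV-173. In this brightest probe set the order was treated SUP-B15, untreated SUP-B15, treated BV-173 and untreated BV-173. Each step was larger than the standard error of a difference between 2 arrays, 0.32. The treated arrays were 2.31-fold and 1.56-fold higher than their untreated partners in SUP-B15 and BV-173, a mean log2 change of 0.93 (SE 0.23, limma adjusted p = 0.00321). All 3 probe sets gave positive changes in both lines, of 0.97 to 1.21 in SUP-B15 and of 0.49 to 1.11 in BV-173. When every probe set was fitted by itself, limma called 2 of the 3 (adjusted p = 0.00357 and 0.00796) and did not call the dimmest (0.209). In the dimmest, untreated SUP-B15, at 310.8, was below treated BV-173, at 326.1. With the mean of the 3 probe sets the change was 0.9, limma gave an adjusted p of 0.0567, and the call ended. That setting changes the error read for every gene. In it TRIB1, with 1 probe set and the same mean change of -0.97, had a limma adjusted p of 0.0388 against 0.00143.

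INSR encodes the insulin receptor, which stands upstream of PI3K and is induced by FOXO factors when the pathway is off. The brightest probe set gave 2849.5 in treated and 2137.5 in untreated SUP-B15, and 1423.2 in treated and 519.3 in untreated BV-173. The treated array was 1.33-fold higher in SUP-B15 and 2.66-fold higher in BV-173, with a mean log2 change of 0.91 (SE 0.21, limma adjusted p = 0.00189). Most of this mean came from BV-173, whose untreated array was the lowest of the 4. The second probe set was dim in BV-173, at 11.2 treated and 8.0 untreated, and read 116.5 treated and 69.5 untreated in SUP-B15. Its changes were 0.58 in SUP-B15 and 0.14 in BV-173, so the larger response in BV-173 rests on a single probe set, and with the mean of both probe sets limma no longer called INSR (adjusted p = 0.371).

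IRS2 encodes the adaptor that carries signals from the insulin receptor to PI3K and is also a FOXO target. Its signal was 1006.1 in treated and 1380.8 in untreated SUP-B15, and 903.1 in treated and 820.4 in untreated BV-173. Untreated SUP-B15 was the highest array, and the other 3 lay within the standard error of their neighbours. The log2 changes were -0.45 in SUP-B15 and 0.13 in BV-173, and those of the second probe set were -0.55 and 0.55. Scaled to a common median, those of the brightest probe set were -0.34 and -0.03. limma did not call the mean change of -0.16 (SE 0.23, adjusted p = 0.891).

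PIK3IP1 encodes a membrane protein that binds the catalytic subunit of PI3K and restrains it. Signals were 297.3 in treated and 203.7 in untreated SUP-B15, and 443.8 in treated and 236.6 in untreated BV-173. The log2 changes were 0.50 and 0.84, with a mean of 0.67 (SE 0.32) that limma did not call (adjusted p = 0.357). The other PIK3IP1 probe set gave -0.04 in SUP-B15 and 0.40 in BV-173, and was the only one among the 7 members with several probe sets to change sign, in SUP-B15. CITED2, a co-regulator that binds the acetyltransferases CBP and p300, had 536.1 in treated and 358.2 in untreated SUP-B15, and 653.0 in treated and 430.6 in untreated BV-173. Both treated arrays were above both untreated arrays for CITED2, but each step in the order was within the standard error of 0.38. Its changes of 0.55 and 0.57 were nearly equal in the lines and had a mean of 0.56 (SE 0.27, limma adjusted p = 0.339). The second probe set of CITED2 gave 0.24 in SUP-B15 and 0.64 in BV-173.

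TRIB1 encodes a pseudokinase that brings the ubiquitin ligase COP1 to its substrates, among them the transcription factor C/EBPα, and it was the member that fell. Its signal was 480.2 in treated and 1334.1 in untreated SUP-B15, and 1212.2 in treated and 1726.5 in untreated BV-173. Both untreated arrays were above both treated arrays, though untreated SUP-B15 and treated BV-173 differed by 0.14 on the log2 scale, less than the standard error of 0.32. The log2 changes were -1.43 in SUP-B15 and -0.50 in BV-173, and the mean fell by 0.97 (SE 0.22, limma adjusted p = 0.00143). TRIB1 is measured by 1 probe set.

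KLF2 and TXNIP had changes of opposite sign in the lines. KLF2, a transcription factor of lymphocyte quiescence and trafficking and a target of FOXO1 in mouse lymphocytes, had signals of 91.9 in treated and 266.8 in untreated SUP-B15, and of 160.3 in treated and 49.5 in untreated BV-173. On the log2(signal + 24.5) scale it changed by -1.32 in SUP-B15 and 1.32 in BV-173, which cancel in the mean, and limma did not call it (adjusted p = 1.0). These sizes depend on the pseudocount: they were -1.53 and 1.68 with a pseudocount of 1, and -0.94 and 0.81, under 2-fold in both lines, with 4 times the pseudocount. KLF2 was dim, with treated SUP-B15 and untreated BV-173 below their arrays' medians of 106.6 and 95.5. Each step in its order was within the standard error of 0.73, although the change in each line was larger than it, and KLF2 is measured by 1 probe set.

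TXNIP, an arrestin-like protein that binds thioredoxin and restrains glucose uptake, is induced by the glucose-sensing factor MondoA through the carbohydrate response elements of its promoter. Its brightest probe set gave 1674.5 in treated and 4103.2 in untreated SUP-B15, and 5192.9 in treated and 3332.9 in untreated BV-173. Treated BV-173 was the highest array and treated SUP-B15 the lowest, and each step in the order was larger than the standard error of 0.29. The step between the untreated arrays was barely so, at 0.30. Another probe set read 2355.5 in untreated SUP-B15 and 2350.1 in untreated BV-173. The log2 changes of the brightest probe set were -1.28 in SUP-B15 and 0.64 in BV-173. All 3 probe sets had these directions, with -1.28 to -0.84 in SUP-B15 and 0.62 to 0.64 in BV-173. The mean change of -0.32 (SE 0.20) was not called by limma (adjusted p = 0.607), the opposite responses partly cancelling in it.

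**Figure D2:**
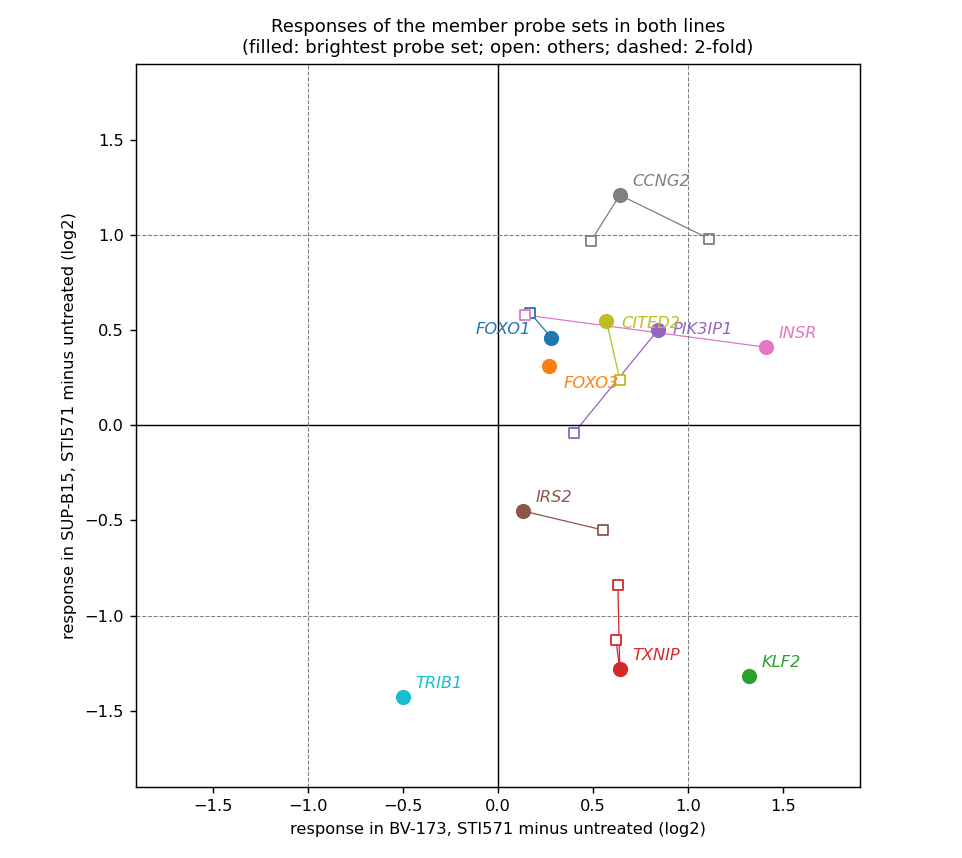
Response to STI571 (log2, treated minus untreated) of each member probe set in SUP-B15 on the vertical axis and in BV-173 on the horizontal axis, with a filled circle for the brightest probe set of a gene, open squares for its other probe sets and dashed lines at 2-fold. IRS2, TXNIP and KLF2 lie below 0 in SUP-B15 and above 0 in BV-173, TRIB1 lies below 0 in both, and the 6 other members lie above 0 in both with their brightest probe set.

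Counted line by line in SUP-B15, CCNG2 was at least 2-fold higher, as were 4.08% of all genes, and KLF2, TRIB1 and TXNIP were at least 2-fold lower, as were 5.68%. In BV-173, INSR and KLF2 were at least 2-fold higher, against 6.91% of all genes, and 0 members were at least 2-fold lower, against 4.6%. KLF2 and TXNIP were at least 1.5-fold lower in SUP-B15 and at least 1.5-fold higher in BV-173, as were 2.75% of all genes, a threshold chosen after these values were seen. The response in SUP-B15 minus that in BV-173 was -1.92 for TXNIP, a distance reached by 4.89% of all genes. For KLF2 it was -2.64, or -1.75 with 4 times the pseudocount. KLF2 passed the filter only through the arrays in which it is high. Its place among all genes is therefore not given, and the shares of 5.68%, 6.91% and 2.75% are not read for it. INSR at -1.0 and TRIB1 at -0.93 were less far apart, distances reached by 17.3% and 19.7%. For CITED2 and FOXO3 the responses differed by -0.02 and 0.04. With 1 array per group, a difference between the responses of the lines has no test.

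**Figure D3:**
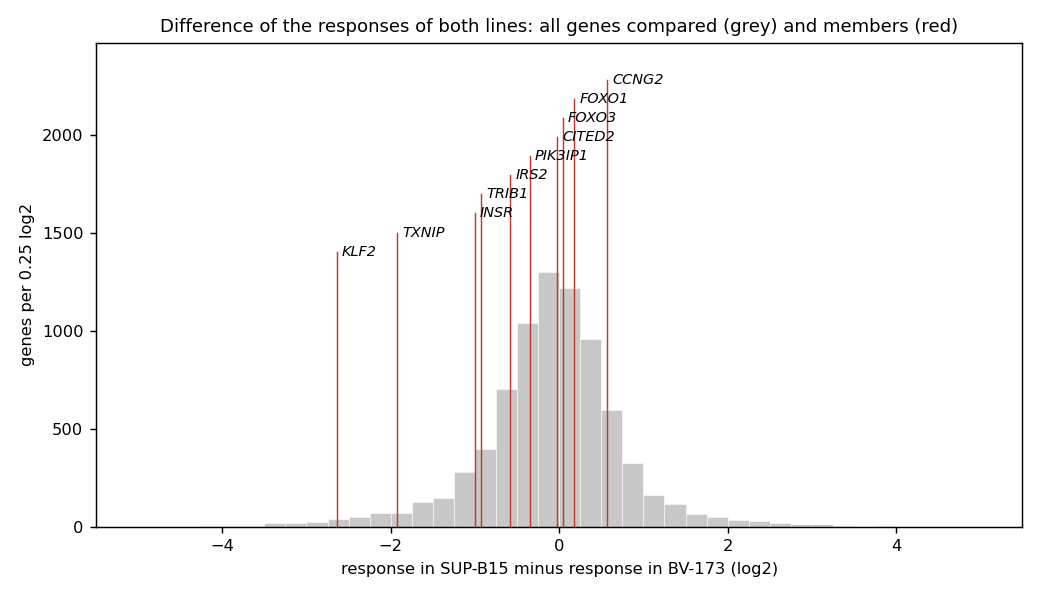
Response in SUP-B15 minus response in BV-173 (log2) on the horizontal axis, with the number of genes per 0.25 log2 in grey for all 7916 genes compared and a red line for each member. TXNIP at -1.92 lies in the left tail, and CCNG2 at 0.57 is the member furthest to the right. KLF2 is drawn at -2.64, but it passed the filter only through the arrays in which it is high, so its place is not read.

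The second comparison asked how the levels of these genes differed between the lines, averaged over treatment. FOXO1, INSR and CCNG2 were higher in SUP-B15 and TRIB1 and TXNIP were lower, and limma called these 5. Over all genes the fit called 14.4% higher in SUP-B15 and 14.4% lower. INSR was higher by a log2 difference of 1.49 (SE 0.21, limma adjusted p = 8.86e-11) and CCNG2 by 1.49 (SE 0.23, adjusted p = 1.16e-09). In the brightest probe set of both genes each SUP-B15 array was above each BV-173 array. The dimmest CCNG2 probe set did not keep this order, with 310.8 in untreated SUP-B15 and 326.1 in treated BV-173. Fitted by itself it differed by 0.67, which limma did not call (adjusted p = 0.0772). The second INSR probe set differed by 1.76 and was not called either (limma adjusted p = 0.22). FOXO1 was higher by 0.83 (SE 0.24, limma adjusted p = 0.00311), with 0.92 between the treated and 0.75 between the untreated arrays. FOXO3 had the other direction, at -0.52 (SE 0.24), without passing the test (limma adjusted p = 0.0834).

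For TXNIP and TRIB1 the lines stood further apart in treated than in untreated cells. TXNIP averaged -0.66 (SE 0.20, limma adjusted p = 0.0062), with -1.62 between the treated arrays and 0.30 between the untreated arrays. Its 3 probe sets by themselves gave alike differences of -0.66, -0.58 and -0.73. With their mean the difference was again -0.66, but TXNIP was no longer called (limma adjusted p = 0.0877), in a fit that reads a different error for every gene. TRIB1 averaged -0.83 (SE 0.22, limma adjusted p = 0.00127), with -1.29 between the treated and -0.37 between the untreated arrays. KLF2 showed a difference of -0.67 between treated and 1.98 between untreated cells, and its average of 0.66 (SE 0.51) was not called (limma adjusted p = 0.368). IRS2, PIK3IP1 and CITED2 had average differences of 0.44, -0.37 and -0.26 and were not called.

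**Figure D4:**
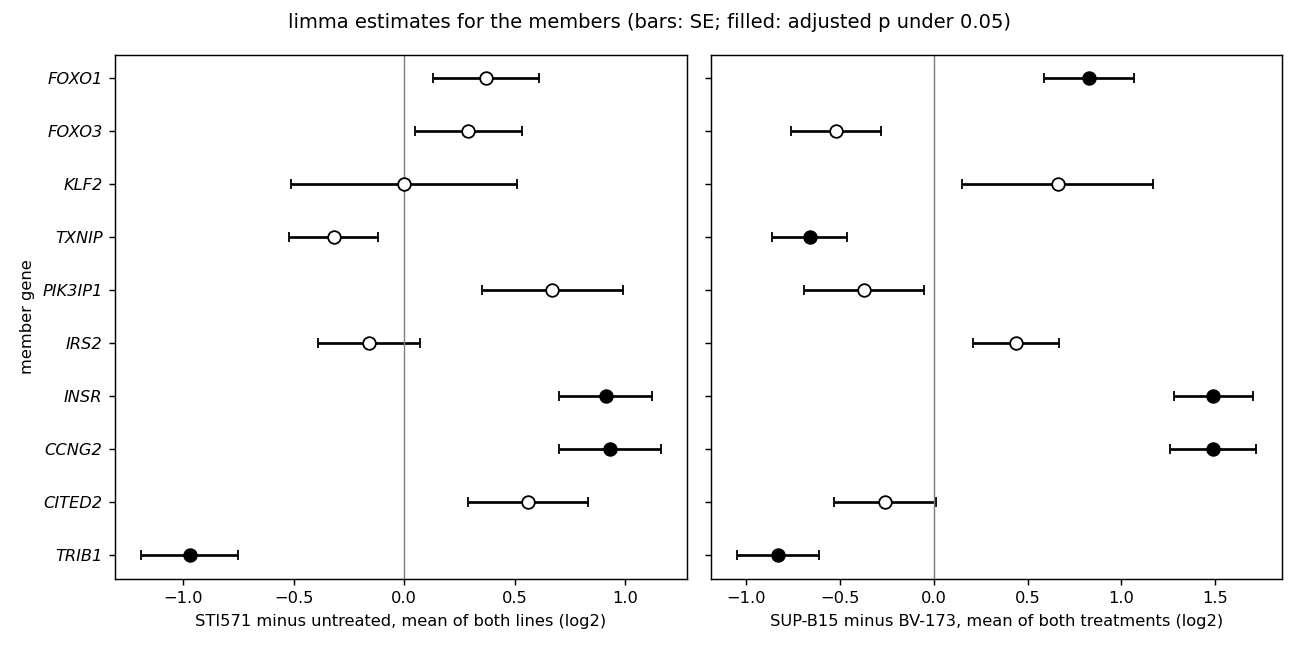
limma estimates for the 10 members, STI571 minus untreated averaged over the lines on the left and SUP-B15 minus BV-173 averaged over treatment on the right (log2, bars are the SE), filled where the adjusted p was under 0.05. The filled points are CCNG2, INSR and TRIB1 on the left and FOXO1, TXNIP, INSR, CCNG2 and TRIB1 on the right.

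Other genes of the pathway were counted in 4 lists. The lists were chosen with earlier results of these data known, so a count of calls in them is a description and not a test. Over all genes limma called 1.4% higher and 1.62% lower for STI571. Of 30 further FOXO targets, 19 were compared, and limma called 4 higher and 1 lower. Their median change was 0.15 in SUP-B15 and 0.26 in BV-173. Those called higher were BCL6, RAG1 and RAG2, with log2 changes of 1.86 and 3.28, 1.42 and 1.89, and 0.95 and 1.39 in SUP-B15 and BV-173, and IL7R, the interleukin-7 receptor chain, named after its values of 0.61 and 0.83 were seen. The gene called lower was BNIP3, a mitochondrial protein that promotes mitophagy, with signals of 1054.9 in treated and 2227.6 in untreated SUP-B15 and of 1464.8 in treated and 2675.8 in untreated BV-173 (limma adjusted p = 0.000576).

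Of 30 core genes of the PI3K, AKT and mTOR pathway, 23 were compared, 2 were called higher and 0 lower, and the median change was 0.02 in SUP-B15 and -0.02 in BV-173. Both genes called encode parts of class I PI3K. PIK3CD, its delta catalytic subunit, which is characteristic of leukocytes, had 7942.6 in treated and 4387.9 in untreated SUP-B15, and 5140.8 in treated and 3171.6 in untreated BV-173 (limma adjusted p = 0.00953). PIK3R1, its regulatory subunit p85α, had 2021 in treated and 1177 in untreated SUP-B15, and 1059 in treated and 516.6 in untreated BV-173 (limma adjusted p = 0.00496). For both genes the treated array was the higher in each line, with log2 changes of 0.85 and 0.69 for PIK3CD and of 0.77 and 1.0 for PIK3R1 in SUP-B15 and BV-173.

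Of 25 regulators and partners of FOXO proteins, 21 were compared, 0 were called higher and 1 lower. That gene was PRMT1, a methyltransferase that modifies FOXO1 next to an AKT site, with 3669 in treated and 7493.7 in untreated SUP-B15 and 5911.3 in treated and 9421.9 in untreated BV-173 (limma adjusted p = 0.00313). The ubiquitin ligase MDM2 (changes of 0.37 in SUP-B15 and 1.23 in BV-173), the kinase SGK1 (1.24 and 0.80) and the deacetylase SIRT2 (0.29 and 1.02) were not called, with limma adjusted p-values of 0.0559, 0.662 and 0.249. SGK1 was dim and reached the array's median in treated BV-173 alone, so the filter favoured its rise there. Of 16 relatives of the members, 8 were compared and 0 were called. Their median change was -0.55 in SUP-B15 and -0.32 in BV-173. A negative change in both lines was seen in 5 of the 8, against 26.5% of all genes. IRS1 and TRIB2 among them were dim and reached the array's median in untreated BV-173 alone. The filter thus favoured their fall in BV-173, and the count is not read as a result. The relatives with the largest mean changes were IRS1 (-0.81 and -0.51), TRIB2 (-0.96 and -0.68), KLF6 (-0.55 and -0.69) and KLF13 (-0.63 and -0.60), with limma adjusted p-values of 0.394 to 0.836.

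**Figure D5:**
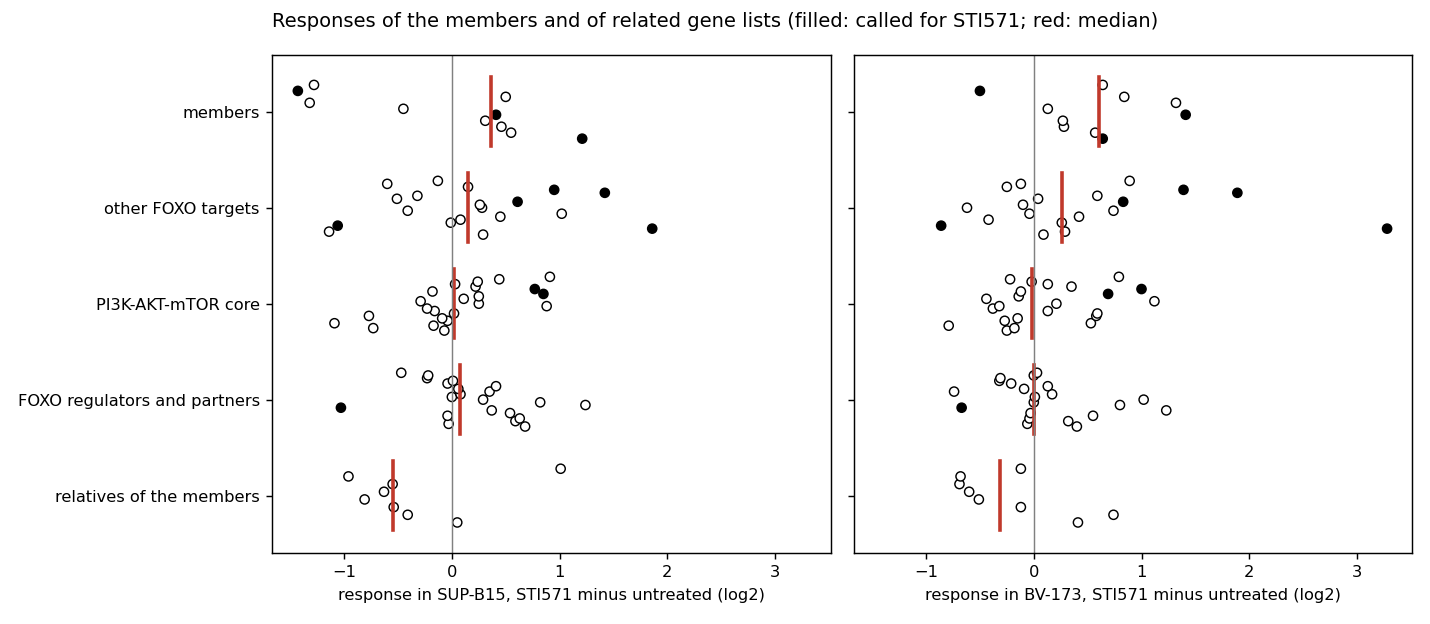
Response to STI571 (log2, treated minus untreated) of each compared gene in SUP-B15 on the left and BV-173 on the right, for the members and 4 related lists, with called genes filled and the median of each list in red. The members' median is 0.36 in SUP-B15 and 0.61 in BV-173, and the relatives' median is -0.55 and -0.32. IRS1 and TRIB2 of the relatives passed the filter through untreated BV-173 alone.

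The calls for the members rest on the fit's intensity trend. With 1 residual degree of freedom and an infinite prior, the error of a gene is read from the trend for genes of like signal and not from its own arrays. Without the trend 0 of the 10 members and 0 genes in all were called by limma for STI571, with 658 genes at an unadjusted p under 0.05, and CCNG2, INSR and TRIB1 had adjusted p-values of 0.565, 0.607 and 0.598. Between the lines 0 members were called without it, and CCNG2 came nearest (limma adjusted p = 0.0542). Scaled to a common median, which moved the median line difference of all genes to -0.15 against -0.04, CCNG2 and INSR were no longer called for STI571 (limma adjusted p = 0.0789 and 0.0654), nor was FOXO1 between the lines (0.0567).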

How the data were processed

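The authors deposited linear signal intensity values for 22277 probe sets in 4 arrays. The submitters' processing notes name GCOS 1.3, and give no probe summary method or scaling value. Trimming 2% at each end, the mean was 499.8 in each array, so the arrays had been scaled by the authors. Per the labels' protocols, RNA was purified with a Qiagen RNeasy kit and labelled with biotin. Detection calls were not used here.

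Probe sets naming 1 gene were kept if their signal was at or above the 50th percentile of any array, and the one with the highest mean log2 value stood for its gene, leaving 7916 genes. Signals were compared as log2(signal + 24.5), the 25th percentile of all signals. One limma fit (limma 3.58.1, R 4.3.3) to all 4 arrays had cell line and treatment as terms, an intensity trend and two-sided tests adjusted by Benjamini-Hochberg over 7916 genes. The cell line pairs the arrays, as the labels give it. Genes were named by rule: all members, the called genes of each list or its 4 largest changes, and the 5 genes most like the called member that changed most. The members and lists were chosen with earlier results of these data known. The labels do not say whether arrays came from separate cultures, and p-values measure no spread between cultures. They rest on a spread read from genes of like signal in these arrays. In this fit that spread comes from differences between the responses of the lines. Symbols follow the platform annotation, 19052 of the 19064 probe sets matching RefSeq of GRCh38.p14 by Entrez ID. Alternatives covered scaling, pseudocount, filter, choice of probe set, prior and model terms.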

Additional observations from a re-analysis of the deposited data

Results flagged for a closer look

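In 3 members the response to STI571 was negative in SUP-B15 and positive in BV-173, and the difference was not tested, since each response is 1 treated array against 1 untreated array. The response in SUP-B15 minus that in BV-173 was -2.64 for KLF2, -1.92 for TXNIP and -0.58 for IRS2 on the log2 scale. For KLF2 the directions stand on a single dim probe set, for IRS2 on both of its probe sets and for TXNIP on all 3. Scaled to a common median, IRS2 changed by -0.34 in SUP-B15 and -0.03 in BV-173, so its signs were no longer opposite. KLF2 and TXNIP kept opposite signs under that scaling.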

How the results depend on the processing

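Of 102 counts recomputed under the alternatives, 74 stayed within 1.5 times the value reported, and of 324 values of single members 302 kept their direction and side of the threshold, or their size where there was no test. Both other pseudocounts, quantile normalization, either other filter and a fit of every probe set gave the same counts of called members as reported. A robust prior returned the reported counts and adjusted p-values unchanged. It is therefore no separate check, though its values are among the 102 and the 324. Genes called higher and lower for STI571 were 111 and 128; they were 55 and 61 with the mean of probe sets, 59 and 94 with a common median, 63 and 74 with gene-specific probe sets alone, 0 and 0 without the intensity trend, and 0 and 0 without the cell line term (70 at an unadjusted p under 0.05). Members called higher for STI571, 2 as reported, were 0 with the mean of probe sets, 0 with a common median, 1 with gene-specific probe sets (INSR and 5 other members have none), 0 without the trend and 0 without the cell line term. The 1 member called lower was 0 without the trend and 0 without the cell line term. Genes called higher and lower in SUP-B15, 1136 and 1137, were 686 and 654 with gene-specific probe sets and 407 and 222 without the trend, and those lower were 677 without a treatment term. Members higher in SUP-B15, 3 as reported, were 2 with a common median and 2 without a treatment term (FOXO1 not called, limma adjusted p = 0.0567 and 0.053), 1 with gene-specific probe sets and 0 without the trend. Members lower in SUP-B15, 2 as reported, were 1 with the mean of probe sets, 1 with gene-specific probe sets, 0 without the trend and 0 without a treatment term. At 1.5-fold in place of 2-fold, 1 member, CCNG2, against 0 changed the same way in both lines. The mean change of KLF2, under 0.01 in size, turned to 0.07 with a pseudocount of 1. Fewer probe sets were tested with the gene-specific choice. The prior, infinite as reported and with a common median, had 16.7 degrees of freedom with the mean of probe sets and 3.4 without the trend. It had 3.47 without the cell line term and 10.2 without a treatment term. The mean change of CCNG2 for STI571 was 0.9 with the mean of probe sets, and 0.93 without the trend or the cell line term, as reported. The cause of these losses was not tested. Dim signals limit KLF2 and the second probe set of INSR.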

Other observations

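TRIB1 was the called member with the largest mean change, and the genes with the most similar profile were sought by the Euclidean distance between centred log2 values over the 4 arrays. The nearest 5 of the 7916 genes were SYNGR1, a synaptic vesicle protein gene, at 0.08, IFRD2 at 0.12, MOCS1, of molybdenum cofactor synthesis, at 0.14, LORICRIN, of the epidermal barrier, at 0.15, and the helicase gene RTEL1 at 0.16. IFRD2 was the only one of the 5 called for STI571, with 500.3 in treated and 1235.7 in untreated SUP-B15 and 1189.4 in treated and 1640.2 in untreated BV-173 (limma adjusted p = 0.00768). LORICRIN was dim, at 8.4 in treated SUP-B15 and 55.3 in treated BV-173, as was MOCS1, at 16.5 and 89.8. Both passed the filter through untreated BV-173 alone, the array in which TRIB1 was highest, so the filter favoured their likeness. With 4 arrays such a likeness is a description.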
